A study of Mus musculus with 6 samples.

Results

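The integrated stress response is the pathway by which a cell slows protein synthesis and rewrites its transcription when it is under strain. Kinases that each sense a different strain phosphorylate the alpha subunit of the initiation factor eIF2. PERK responds to misfolded protein in the endoplasmic reticulum (ER), GCN2 to a lack of amino acids, and HRI to heme shortage and mitochondrial strain. Translation of most mRNAs then falls, while that of the transcription factor ATF4 increases, and ATF4 together with its target CHOP raises genes of amino acid uptake and synthesis, redox balance and cell death. Wolframin, the product of Wfs1, is a membrane protein of the ER, and its loss is associated with ER stress. The study reports stronger staining for the ER stress proteins ATF6 and CHOP in the mutant retina. From its RNA-seq, in contrast, it reports that gene categories of the response to unfolded protein, protein folding and cell death were lower in the mutant. Transcripts of this pathway were therefore examined in the mutant retina.

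The group comprised 33 genes listed by name, out of the 55376 genes of the deposited count table: eIF2alpha kinases and their substrate, phosphatase subunits, ATF4, CHOP and further transcription factors, and reported targets. All 33 were found in the table, and all 33 were among the 18547 genes that passed the filter on low counts. Whole retinas of 3 wild-type (WT) and 3 Wfs1-/- (Wfs1-KO) mice, all 240 days old, were profiled by RNA-seq. The labels give the strain of all 6 samples as C57x129, while the methods of the study describe a C57BL/6J background. The mutant allele is a targeted deletion of an exon of Wfs1, present in every cell of the animal. In RNA from whole retina, fewer cells of a type and less RNA per cell cannot be told apart. The labels name the tissue as retina, while the methods speak of enucleated eyes. The samples carry a genotype and a number only, so p-values measure the spread between these 6 samples.

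Total counts ranged from 17916885 to 101334381 per retina. Levels are given as CPM, the count of a gene relative to the TMM-scaled library size, or as RPKM, the same value divided by the exon length in kilobases, when different genes are compared. The retina replicate 2 of the mutant group, called Wfs1-KO replicate 2, stood apart, with a mean correlation of 0.918 to the other 5 retinas across genes, against 0.962 or more for each of those. Its summed CPM was 480 over 5 blood markers (12.3 to 41.2 in WT), 108 over 6 myeloid markers (4.14 to 11.1 in WT) and 387 over 7 pigment epithelium markers (104 to 158 in WT), and 45800 over 7 markers of rods and Müller glia (62420 to 70440 in WT). Summed endothelial markers were at 229 CPM in that retina, against 111 to 141 in WT, and summed myelin markers at 50.8, against 36.3 to 43.6. Lens markers were at no more than 2.94 CPM in total in any retina. No listed marker was at 0 in all 6 retinas. The log2 fold change of each member is therefore given with and without this retina. Wfs1 had 64.9, 61.4 and 69.9 CPM in the WT retinas and 9.63, 0.900 and 11.5 CPM in the mutant retinas, in the order of replicates 1, 2 and 3 that is kept for all values. WT replicate 3 had 4 counts of Xist and 1137 of Ddx3y, whereas each other retina had at least 10583 of Xist and at most 2 of Ddx3y, so that 1 WT animal differed in sex from the rest.

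A short element, the C/EBP-ATF response element, is bound by ATF4 dimers, and the letters TGATGNAA were searched for on both strands in the 250 bases before each RefSeq transcription start (GRCm38.p6, the build of mm10). Of the 33 genes, 30 had a promoter in the RefSeq table, Ero1l under its newer symbol Ero1a. Ppp1r15b, Slc7a5 and Cth had none. The letters were found for 7 of the 30 genes (23.3%), against 3.91% of the 27025 genes of the table. The list was made in part of reported targets of the pathway, so this higher share is not an independent finding. The 8 matches are shown because they include both of the genes whose mutant levels stood out below, Slc7a11 and Nupr1. The other genes with a match, Atf3, Chac1, Vldlr, Asns and Pck2, had log2 fold changes between -0.11 and 0.38 with 6 retinas. Each run is 30 bases, read 5′ to 3′ on the strand of the gene, with the match in capitals. In all but Asns and Pck2 the matched element reads TGATGCAA or its reverse complement.
Slc7a11 (chr3:50443661-50443690, minus strand): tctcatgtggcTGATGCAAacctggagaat
Slc7a11 (chr3:50443642-50443671, minus strand): acctggagaatTTGCATCAtcatgcagccc
Nupr1 (chr7:126625562-126625591, minus strand): aaagggccagaTTGCATCAgacagggcttg
Atf3 (chr1:191183425-191183454, minus strand): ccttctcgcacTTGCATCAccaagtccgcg
Chac1 (chr2:119351038-119351067, plus strand): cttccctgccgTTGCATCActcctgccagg
Vldlr (chr19:27216809-27216838, plus strand): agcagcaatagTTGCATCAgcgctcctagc
Asns (chr6:7693214-7693243, minus strand): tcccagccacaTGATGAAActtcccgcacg
Pck2 (chr14:55540152-55540181, plus strand): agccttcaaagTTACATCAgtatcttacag

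Slc7a11 was the 1 gene with 2 matches, which start at -66 and -47 relative to the RefSeq start and face in opposite directions. The 120 bases before its first exon, with both matches in capitals, are shown as the setting of this pair.
Slc7a11 promoter (chr3:50443615-50443734, minus strand): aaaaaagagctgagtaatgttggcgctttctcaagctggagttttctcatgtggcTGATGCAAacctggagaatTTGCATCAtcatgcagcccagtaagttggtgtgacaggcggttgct
The Nupr1 and Asns matches lie inside an exon of the annotation used for counting, since that annotation has starts further upstream. A match is a description of the letters in this window and not evidence of binding.

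In WT retinas the 33 transcripts spanned a wide range of levels per length. Atf4 led with 142 ± 8.86 RPKM (SD, n = 3), followed by Ddit4, a stress-induced inhibitor of mTORC1, with 132 ± 18.2 RPKM, and Ddit3, which encodes CHOP, with 54.1 ± 9.48 RPKM. The gap between Atf4 and Ddit4 was smaller than the SD of Ddit4. Next came Slc3a2, the heavy chain shared by several amino acid transporters, with 44.7 ± 3.77 RPKM, and the lipoprotein and reelin receptor Vldlr with 35.7 ± 6.76 RPKM. At the other end lay Gdf15, a secreted stress cytokine, with 0.334 ± 0.152 RPKM, and Slc7a11, the cystine-glutamate exchanger, with 0.490 ± 0.163 RPKM. Stc2 (0.915 ± 0.293 RPKM) and Chac1 (0.934 ± 0.293 RPKM) were also low. The lowest count of any member in any retina was 10, for Gdf15.

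**Figure D1:**
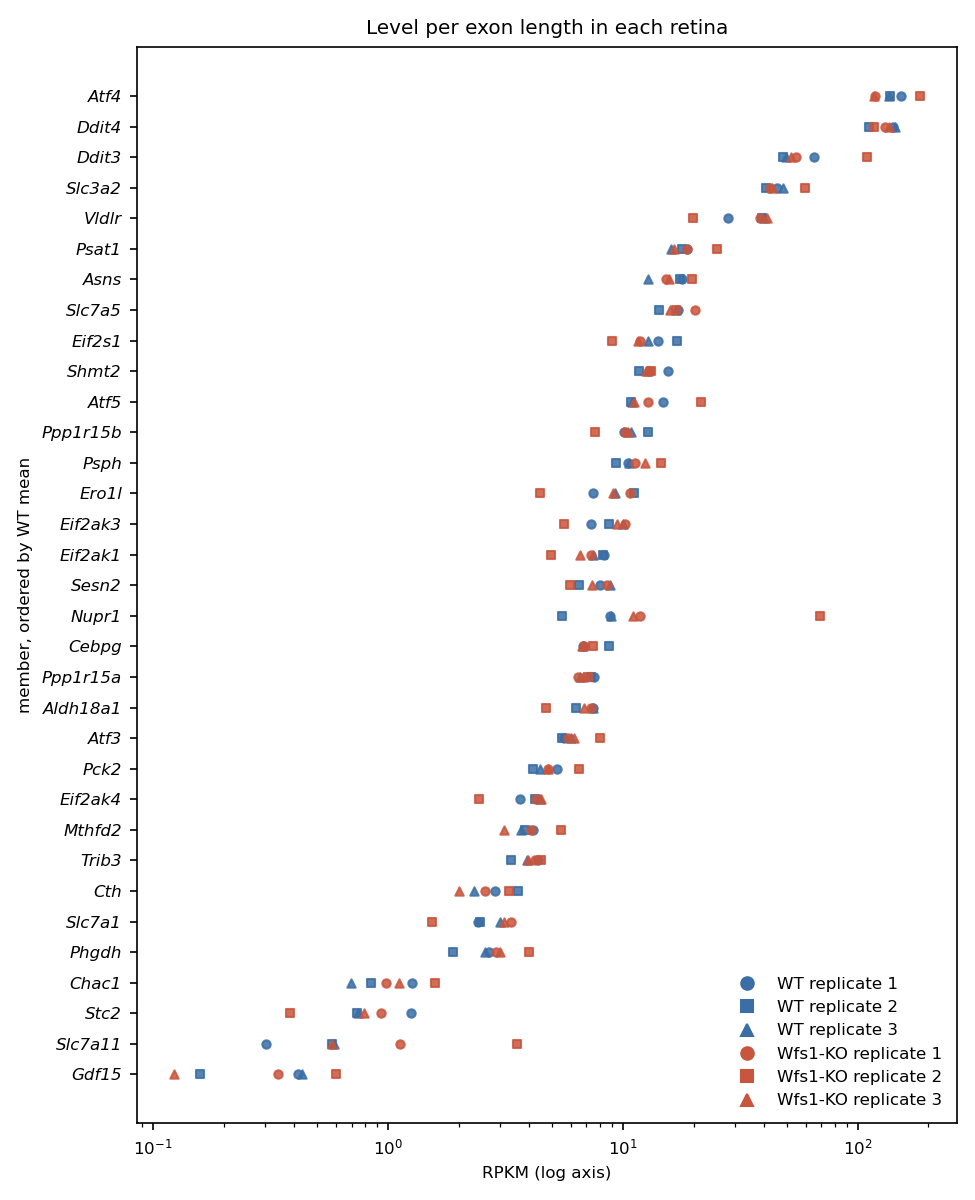
Level of each of the 33 genes in every retina, in RPKM on a log axis, with genes ordered by the WT mean. Blue symbols are WT and red symbols Wfs1-KO retinas, with circle, square and triangle for replicates 1, 2 and 3. Most genes keep their 6 symbols close together, and the red square of Wfs1-KO replicate 2 lies far to the right for Nupr1 and Slc7a11.

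Whether the genotypes differed was tested by the quasi-likelihood method of edgeR on all tested genes together, and p-values were adjusted over all of these (Benjamini-Hochberg). None of the 33 genes had an adjusted p under 0.05 in this test, where 0.0108% of all tested genes did. Adjusted p-values of the members lay between 0.979 and 0.993. At an unadjusted p under 0.05, 2 members were higher in mutant retinas, Nupr1 and Slc7a11, and 0 were lower, against 2.24% of all genes that were higher and 0.566% that were lower. With Wfs1-KO replicate 2 left out, 0 members passed the adjusted threshold (0.125% of all genes did), and the same 2 members, and no others, had an unadjusted p under 0.05 (2.8% of all genes were higher and 2.39% lower). DESeq2 with 6 retinas also called 0 members, while it called 49 of the 19921 genes it tested (0.246%). Its smallest adjusted p among the members was 0.292, for Nupr1. By the same tool, the study reports far more differing genes than were called here. The published set of calls was thus not reproduced, and the cause of this gap was not tested. The deleted gene Wfs1 itself was not called by edgeR's test with 6 retinas (log2 fold change -3.15, unadjusted p = 0.00428, adjusted p = 0.979). That test called Wfs1 without Wfs1-KO replicate 2 (adjusted p = 2.84e-05), and DESeq2 called it with 6 retinas (adjusted p = 0.00092). A lack of calls with 6 retinas in edgeR's test is therefore weak evidence of no difference. Across the members, 17 log2 fold changes were above 0 and 16 below, with a median of 0.026, and the median of all tested genes was 0.023. Without Wfs1-KO replicate 2 the members split into 15 and 18 with a median of -0.0037, and all genes had a median of -0.00038.

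Failure to pass a threshold does not show that levels were equal, so the 95% interval of each fold change was read as well. With 6 retinas the interval lay within -1 and 1 on the log2 scale, that is within a doubling and a halving, for 26 of the 33 genes. The exceptions were Nupr1, Slc7a11, Ddit3, Chac1, Gdf15, Stc2 and Phgdh. Without Wfs1-KO replicate 2 it did so for 30, all but Nupr1, Slc7a11 and Gdf15.

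Among the 33 genes, 3 had every mutant retina above every WT retina, namely Nupr1, Phgdh and Psph, and 2 had every mutant retina below every WT retina, namely Eif2ak1 and Eif2s1. Over all tested genes such a lack of overlap was seen for 5.01% in the higher and 3.94% in the lower direction. With Wfs1-KO replicate 2 left out, 4 genes were higher without overlap, Slc7a1 being the addition, and 3 were lower, Atf4 being the addition, where the shares of all genes were 11.4% and 11.2%.

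**Figure D2:**
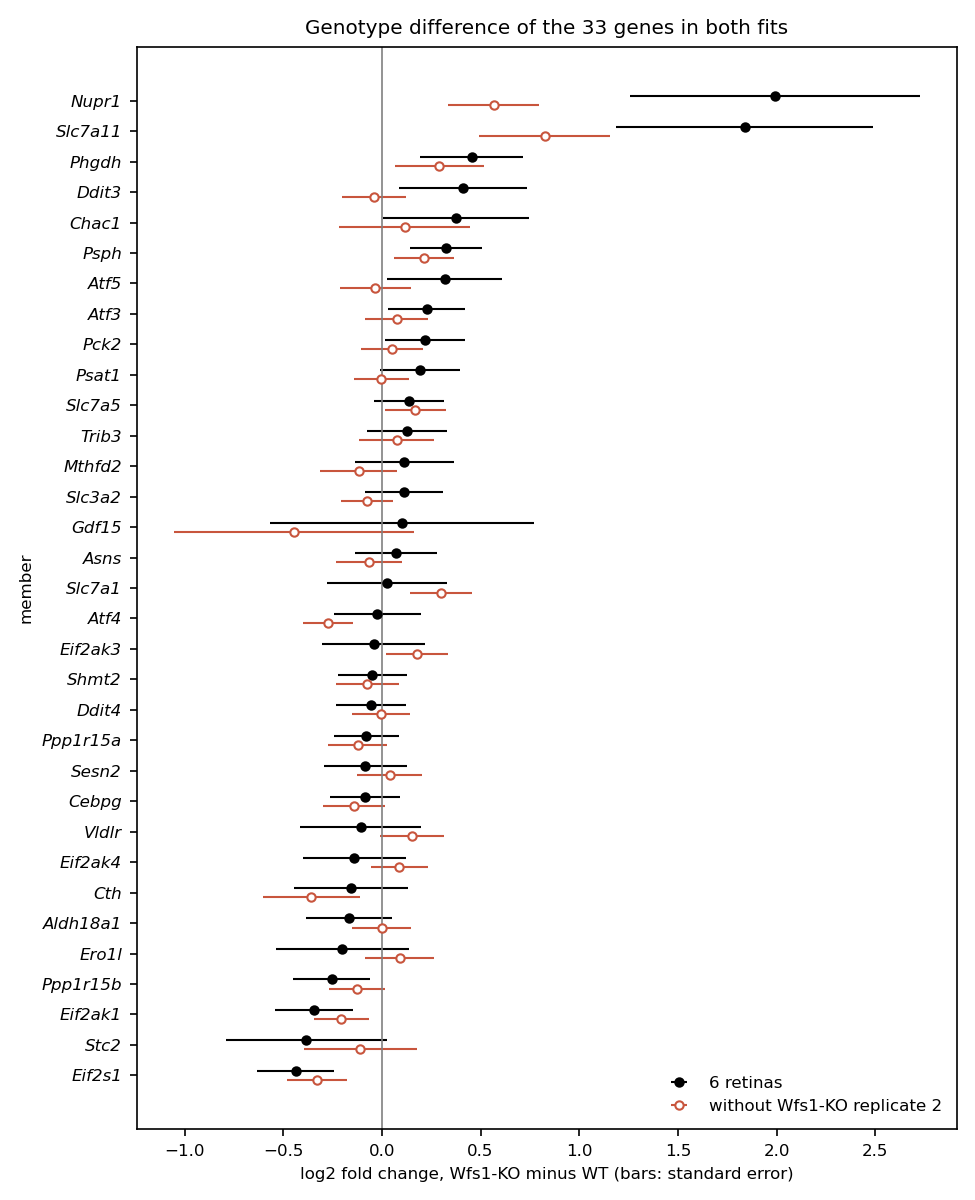
Log2 fold change (Wfs1-KO minus WT) of each gene on the x axis, with bars of 1 standard error, for all 6 retinas in black and without Wfs1-KO replicate 2 in open red. Nupr1 and Slc7a11 lie apart at the top in both fits, at 1.99 and 1.84 with 6 retinas, and the other 31 genes are within 0.5 of zero.

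Nupr1 encodes a small stress-induced nuclear protein that cooperates with other transcription factors. It lies on chromosome 7 of mm10 (126623249 to 126625676, minus strand, ENSMUSG00000030717.9). It had 7.29, 4.58 and 7.38 CPM in the WT retinas and 9.79, 57.5 and 9.17 CPM in the mutant retinas. All 3 mutant retinas were above the WT range, 2 of them slightly and Wfs1-KO replicate 2 by far, at 8.96 times the WT mean. The log2 fold change was 1.99 (standard error 0.73, unadjusted p = 0.0287, adjusted p = 0.979, edgeR's test). Without that retina it was 0.57 (standard error 0.23, unadjusted p = 0.0324, adjusted p = 0.872). The size of the difference thus rested on 1 retina, while replicates 1 and 3 were at 1.53 and 1.43 times the WT mean.

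Slc7a11 encodes xCT, which imports cystine in exchange for glutamate and so feeds glutathione synthesis. It lies on chromosome 3 (49892526 to 50443614, minus strand, ENSMUSG00000027737.10). It had 2.98, 5.72 and 5.79 CPM in WT and 11.1, 34.7 and 5.70 CPM in mutant retinas. Mutant replicates 1 and 2 were above all WT retinas, and mutant replicate 3 lay inside the WT range, just below the upper 2 WT values, so that the genotypes overlapped. The log2 fold change was 1.84 (standard error 0.65, unadjusted p = 0.0249, adjusted p = 0.979, edgeR's test). Without Wfs1-KO replicate 2 it was 0.82 (standard error 0.33, unadjusted p = 0.0314, adjusted p = 0.870). Replicates 1, 2 and 3 were at 2.30, 7.19 and 1.18 times the WT mean. The marker sums of blood, myeloid cells and pigment epithelium that were high in replicate 2 were not raised in replicate 1. They were 22.8, 8.22 and 84.9 CPM there, the first 2 inside the WT range and the third below it. Of single myeloid markers, Cd68 was above its WT range in replicate 1 (1.63 CPM against 1.295 to 1.362), while Lyz2, Ptprc and Cybb lay inside theirs. Myelin markers (46.0 CPM against 36.3 to 43.6 in WT) and lens markers (2.84 CPM against 1.39 to 1.57 in WT) were above the WT range in replicate 1 as well. The part of other cell types in the values of either replicate was not tested. For both Nupr1 and Slc7a11 the unadjusted p was above 0.05 when any 1 of the 3 WT retinas was left out.

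The other transporters did not share these values. Slc3a2, the heavy chain that carries xCT to the cell surface, had 138, 123 and 145 CPM in WT and 127.7, 180.0 and 129.9 CPM in mutant retinas. Only replicate 2 was above the WT range, and the log2 fold change was 0.11 (standard error 0.20), or -0.074 (standard error 0.13) without it. Slc7a5, the exchanger of large neutral amino acids that uses the same heavy chain, had 60.3, 49.97 and 59.0 CPM in WT and 71.5, 59.1 and 55.7 CPM in mutant retinas (log2 fold change 0.14, standard error 0.18, and 0.17, standard error 0.16, without replicate 2). Slc7a1, a carrier of arginine and other cationic amino acids, had 17.4, 17.8 and 21.5 CPM in WT and 24.0, 11.1 and 22.5 CPM in mutant retinas. Its 2 retinas other than replicate 2 were above every WT retina while replicate 2 was the lowest of all, and the log2 fold change moved from 0.026 (standard error 0.30) to 0.30 (standard error 0.16, unadjusted p = 0.0825) without it.

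**Figure D3:**
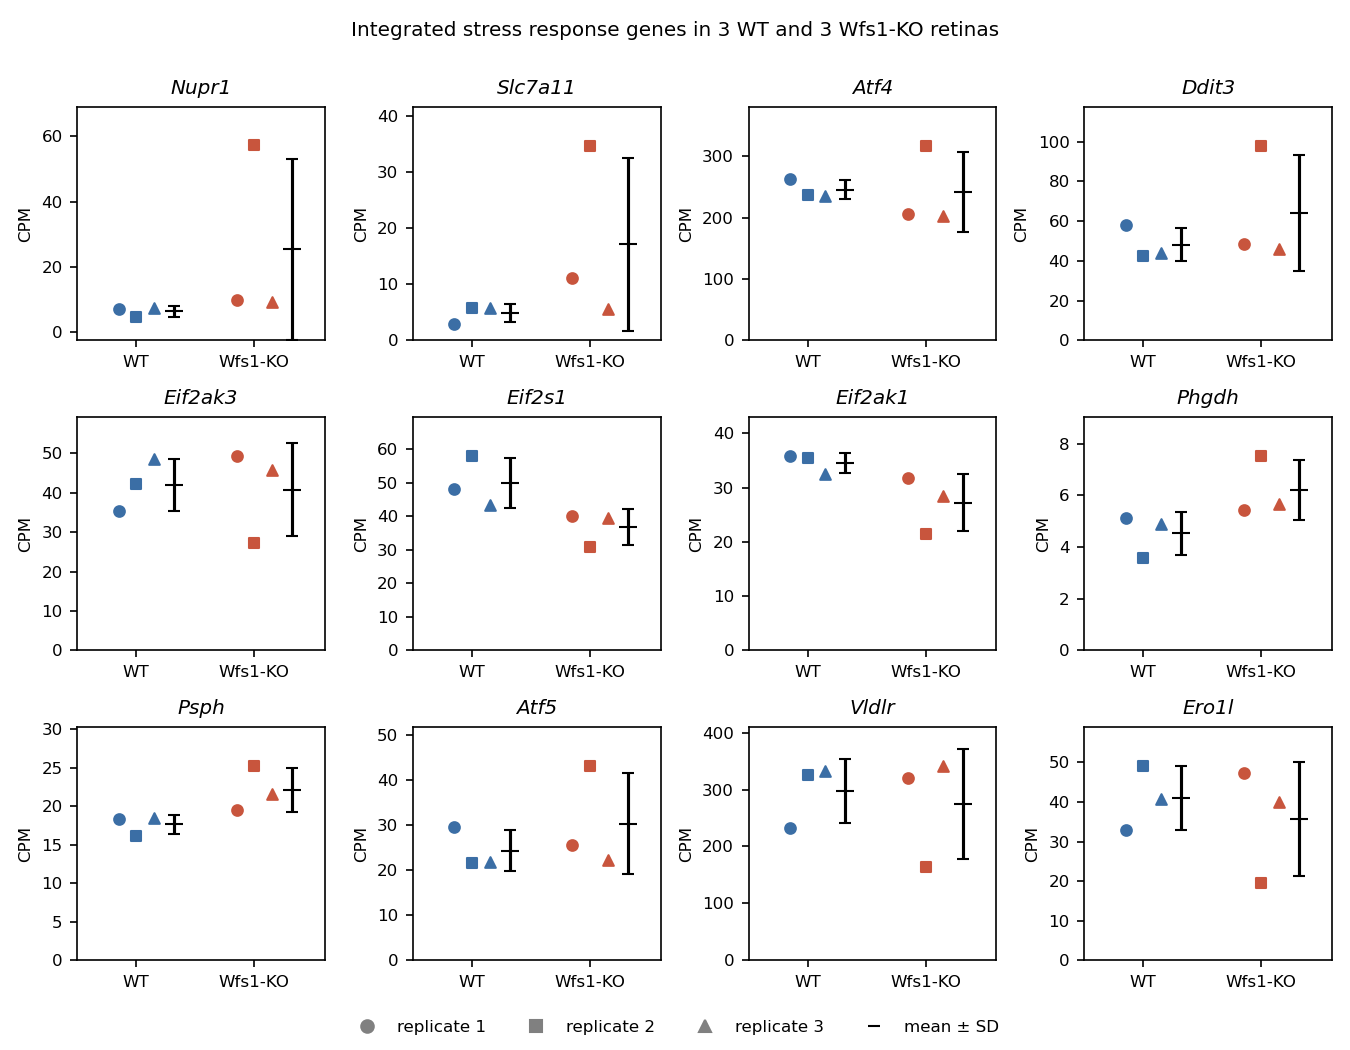
CPM of 12 genes in each retina (y axes start at 0 except for Nupr1, whose error bar goes below it), WT in blue and Wfs1-KO in red, with circle, square and triangle for replicates 1, 2 and 3 and the mean ± SD in black. The red square is the highest value for Nupr1, Slc7a11, Atf4, Ddit3, Phgdh, Psph and Atf5 and the lowest for Eif2ak3, Eif2s1, Eif2ak1, Vldlr and Ero1l, while the red circle and triangle lie closer to the WT values, apart from the circle of Slc7a11, which is above all WT retinas.

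The kinases and their substrate form the upstream end of the pathway. Eif2ak3 encodes PERK and lies on chromosome 6 (70844515 to 70905245, plus strand). It had 35.3, 42.3 and 48.5 CPM in WT and 49.3, 27.3 and 45.7 CPM in mutant retinas. Mutant replicate 1 was the highest and mutant replicate 2 the lowest of the 6. Its log2 fold change was -0.042 (standard error 0.26, 95% interval -0.65 to 0.57), and 0.18 (standard error 0.16, 95% interval -0.17 to 0.52) without Wfs1-KO replicate 2. Eif2ak4, which encodes GCN2, had 26.5, 30.8 and 32.3 CPM in WT and 31.1, 17.7 and 32.5 CPM in mutant retinas, again with replicate 2 lowest. Its log2 fold change was -0.14 (standard error 0.26), and 0.087 (standard error 0.14) without that retina. Eif2ak1, which encodes HRI, had 35.8, 35.5 and 32.4 CPM in WT and 31.7, 21.4 and 28.5 CPM in mutant retinas. No mutant retina reached a WT value, yet the log2 fold change of -0.35 (standard error 0.20, unadjusted p = 0.122) did not pass, nor did that of -0.21 (standard error 0.14, unadjusted p = 0.170) without replicate 2. Its exons share bases with Ankrd61 and Aimp2 on the opposite strand.

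Eif2s1, which encodes eIF2alpha itself, had the most negative log2 fold change of the 33 genes with 6 retinas. It lies on chromosome 12 (78861819 to 78887010, plus strand) and had 48.1, 58.1 and 43.5 CPM in WT and 40.1, 30.7 and 39.7 CPM in mutant retinas. The 3 mutant values were all below the lowest WT value, by a narrow margin in replicates 1 and 3. The log2 fold change was -0.44 (standard error 0.20, 95% interval -0.90 to 0.022, unadjusted p = 0.0591, adjusted p = 0.979, edgeR's test), while it was -0.33 (standard error 0.15, 95% interval -0.67 to 0.0094, unadjusted p = 0.0556, adjusted p = 0.962) without replicate 2. It stayed below 0, between -0.54 and -0.32, whichever retina was left out.

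The phosphatase subunits direct protein phosphatase 1 to eIF2alpha and so end the response. Ppp1r15a, the stress-induced subunit GADD34, had 22.2, 21.4 and 19.2 CPM in WT and 18.99, 20.8 and 19.8 CPM in mutant retinas, the tightest set of mutant values after Shmt2. Its log2 fold change was -0.080 (standard error 0.16), and -0.12 (standard error 0.15) without replicate 2, but its exons overlap those of Tulp2 on the opposite strand. The constitutive subunit Ppp1r15b had 56.8, 71.4 and 60.5 CPM in WT and 57.0, 42.4 and 58.9 CPM in mutant retinas, with replicate 2 the lowest of the 6. Its log2 fold change was -0.25 (95% interval -0.71 to 0.20), and -0.12 (95% interval -0.44 to 0.19) without that retina.

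Of the transcription factors, Atf4 (chromosome 15, 80255184 to 80257541, plus strand) had 263, 238 and 235 CPM in WT and 205, 317 and 202 CPM in mutant retinas. Mutant replicates 1 and 3 were below every WT retina and replicate 2 was above every WT retina, so that the means nearly cancelled. The log2 fold change was -0.023 (standard error 0.22, 95% interval -0.54 to 0.50), and -0.27 (standard error 0.13, 95% interval -0.56 to 0.0070, unadjusted p = 0.0550, adjusted p = 0.962, edgeR's test) without replicate 2. ATF4 is regulated mainly at translation, which these counts do not measure. Ddit3 (chromosome 10, 127290774 to 127296288, plus strand) had 57.9, 42.7 and 44.0 CPM in WT and 48.4, 97.9 and 46.1 CPM in mutant retinas. Replicate 2 was at 2.03 times the WT mean, and the other 2 mutant retinas lay inside the WT range. The log2 fold change was 0.41 (standard error 0.32, 95% interval -0.35 to 1.17, unadjusted p = 0.242), and -0.038 (standard error 0.16, 95% interval -0.40 to 0.32) without replicate 2. The study reports more CHOP protein in mutant retinas by staining, a measure unlike these RNA counts. Ddit3 overlaps Mars and Gm4189 on the opposite strand, and the strand setting of the counting is not given in the sources used here. Exons of Eif2ak3 (Gm43292), Ppp1r15b (Gm26616), Atf5 (Nup62 and Il4i1), Cebpg (Gm45095) and Shmt2 (Ndufa4l2) also overlap those of the named genes on the opposite strand.

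Atf5, a relative of ATF4 induced by the same route, had 29.5, 21.5 and 21.7 CPM in WT and 25.6, 43.1 and 22.2 CPM in mutant retinas, with replicate 2 alone above the WT range, as for Ddit3. Its log2 fold change was 0.32 (standard error 0.29), and -0.033 (standard error 0.18) without that retina. Atf3, an early stress-induced factor, had 12.0, 11.9 and 12.9 CPM in WT and 12.6, 17.2 and 13.3 CPM in mutant retinas, with a log2 fold change of 0.23 (standard error 0.20) that became 0.075 (standard error 0.16) without replicate 2. Cebpg, a dimer partner of ATF4, had 33.7, 43.7 and 34.0 CPM in WT and 34.3, 37.3 and 33.4 CPM in mutant retinas (log2 fold change -0.086, and -0.14 without replicate 2).

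The effectors include transcripts that respond steeply when ATF4 and CHOP are active. Trib3, a pseudokinase that feeds back on the pathway, had 8.79, 6.77 and 7.89 CPM in WT and 8.53, 9.09 and 7.99 CPM in mutant retinas (log2 fold change 0.13, 95% interval -0.35 to 0.60, and 0.074 without replicate 2). Chac1, which degrades glutathione, had 2.06, 1.39 and 1.14 CPM in WT and 1.601, 2.61 and 1.82 CPM in mutant retinas, or 20 to 165 counts per retina, and its log2 fold change of 0.38 had a wide interval (-0.49 to 1.24), as did that of 0.12 without replicate 2 (-0.62 to 0.85). Sesn2, a leucine sensor that restrains mTORC1, had 27.8, 22.7 and 30.6 CPM in WT and 29.9, 20.8 and 25.7 CPM in mutant retinas (log2 fold change -0.085, and 0.039 without replicate 2). Ddit4 had 248, 196 and 254 CPM in WT and 228, 206 and 237 CPM in mutant retinas, all inside the WT range (log2 fold change -0.054, and -0.0037 without replicate 2). Gdf15 was too scarce to follow, with 51, 14 and 14 counts in WT and 65, 47 and 10 counts in mutant retinas and a log2 fold change of 0.10 (95% interval -1.47 to 1.67), or -0.45 (95% interval -1.79 to 0.90) without replicate 2.

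Vldlr had 232, 326 and 332 CPM in WT and 319.9, 164 and 342 CPM in mutant retinas. Ero1l, the oxidase that drives disulfide formation in the ER, had 33, 49.1 and 40.8 CPM in WT and 47.4, 19.5 and 40.1 CPM in mutant retinas. Stc2, a secreted glycoprotein, had 4.94, 2.92 and 2.95 CPM in WT and 3.67, 1.52 and 3.11 CPM in mutant retinas. In each of the 3 genes replicate 2 was the lowest of all 6 retinas, at 0.554, 0.477 and 0.421 times the WT mean for Vldlr, Ero1l and Stc2. Their log2 fold changes were -0.11, -0.20 and -0.38 with 6 retinas, and 0.15, 0.090 and -0.11 without that retina.

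The enzymes that make serine, glycine, asparagine and folate-bound one-carbon units are classic ATF4 targets. Of the 9 enzymes, 2 were higher in every mutant retina, where 5.01% of all tested genes were, and neither passed the test. Phgdh, the first enzyme of serine synthesis, had 5.12, 3.59 and 4.88 CPM in WT and 5.44, 7.53 and 5.68 CPM in mutant retinas. The lowest mutant value exceeded the highest WT value by little, and the log2 fold change was 0.46 (standard error 0.26, unadjusted p = 0.122), or 0.29 (standard error 0.22, unadjusted p = 0.224) without replicate 2. Psph, the last enzyme of the same route, had 18.3, 16.2 and 18.5 CPM in WT and 19.5, 25.2 and 21.6 CPM in mutant retinas, with a log2 fold change of 0.33 (standard error 0.18, unadjusted p = 0.114), or 0.21 (standard error 0.15, unadjusted p = 0.192). Psph exons overlap those of Cct6a on the opposite strand. Psat1, the enzyme between these 2, had 55.0, 52.7 and 47.2 CPM in WT and 55.2, 73.8 and 48.2 CPM in mutant retinas, with a log2 fold change of 0.19 (standard error 0.20), or -0.0039 (standard error 0.14) without replicate 2.

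Asns, which makes asparagine and is among the most used readouts of ATF4, had 38.6, 37.9 and 27.7 CPM in WT and 32.9, 42.6 and 34.0 CPM in mutant retinas. The genotypes overlapped and the log2 fold change was 0.070 (95% interval -0.41 to 0.55), or -0.066 (95% interval -0.44 to 0.30) without replicate 2. The mitochondrial one-carbon enzymes Shmt2 and Mthfd2 had log2 fold changes of -0.048 (standard error 0.18) and 0.11 (standard error 0.25), and of -0.073 and -0.12 without replicate 2. For Aldh18a1, of proline synthesis, the mitochondrial carboxykinase Pck2 and the cystathionine-cleaving enzyme Cth they were -0.17 (standard error 0.22), 0.22 (standard error 0.20) and -0.16 (standard error 0.29), and without replicate 2 they were -0.0017, 0.051 and -0.36.

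**Figure D4:**
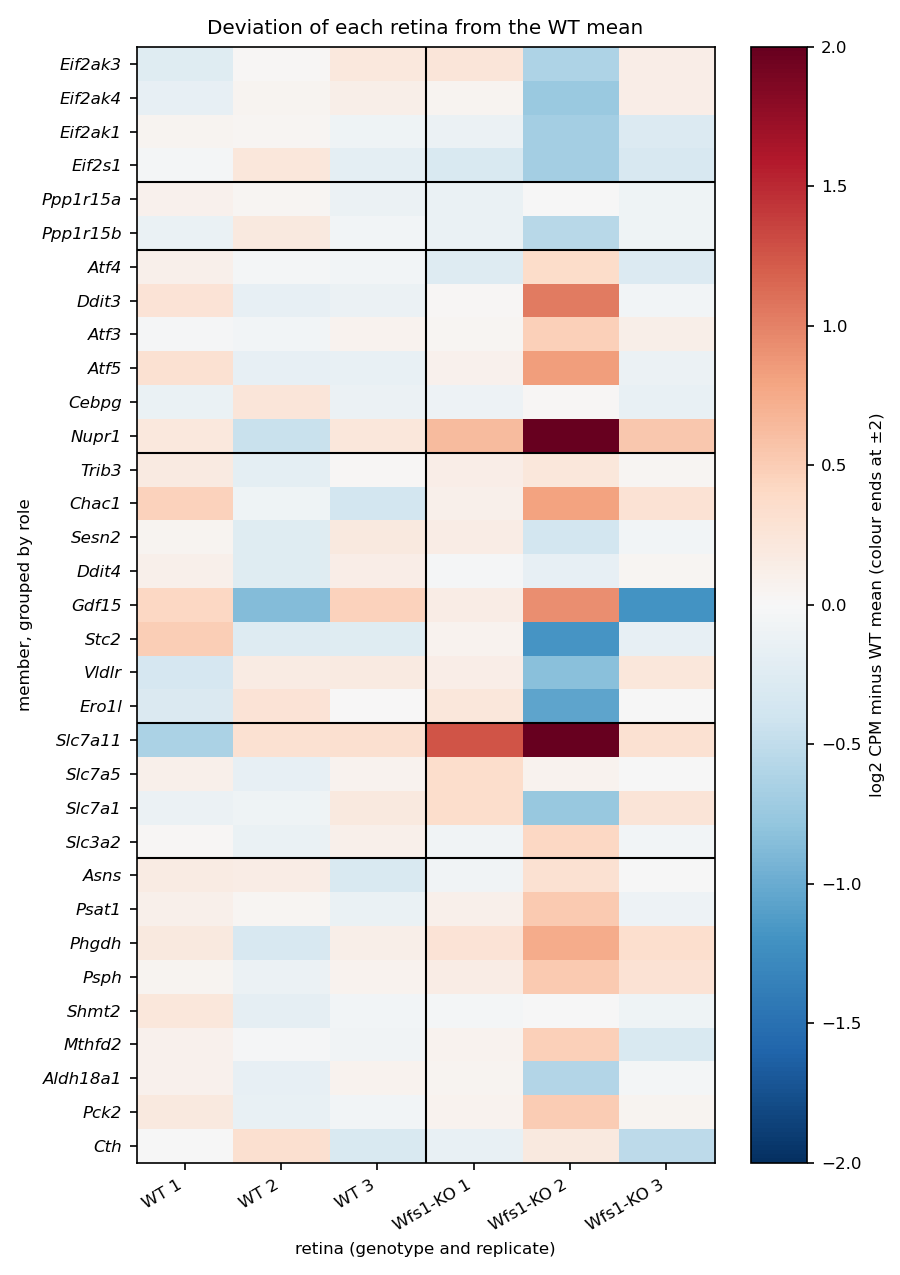
Deviation of each retina from the WT mean in log2 CPM for the 33 genes, grouped by role with black lines, columns being the 3 WT and then the 3 Wfs1-KO retinas (red above, blue below, colour ending at ±2). The column of Wfs1-KO replicate 2 holds the strongest colours in both directions, while those of replicates 1 and 3 resemble the WT columns except at Nupr1, Slc7a11 and Gdf15.

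Wfs1-KO replicate 2 was the highest of the 6 retinas for 16 of the 33 genes and the lowest for 11, together 81.8% of the members, while over all tested genes it was at either end for 75.3%. Mutant replicates 1 and 3 were at either end for 4 and 7 members (12.1% and 21.2%), against 17.4% and 23.0% of all tested genes. Replicate 1 had 8 members above the WT range (24.2%), 4 below (12.1%) and 21 inside, where 20.3% of all tested genes were above and 18.9% below. Replicate 3 had 7 above (21.2%), 7 below (21.2%) and 19 inside, where 21.9% of all tested genes were above and 20% below. These shares of the members were near those of all genes. A difference of at least 2-fold from the WT mean was seen for 5 members in replicate 2 (Nupr1, Slc7a11 and Ddit3 above, Stc2 and Ero1l below), for 1 in replicate 1 (Slc7a11) and for 1 in replicate 3 (Gdf15, below). The share of all tested genes at that distance was not counted. The coefficient of variation across mutant retinas exceeded that across WT retinas for 25 of the 33 genes, with medians of 22.1% and 14.7%. Over all tested genes these medians were 29.0% and 16.7%, and the mutant value was the larger in 70.1%.

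The direction in which replicate 2 departed from WT moved with exon length. Of the 10 members with exons under 2 kilobases, 9 were above the WT mean in that retina, with a median deviation of 0.77 on the log2 scale. Of the 10 with exons over 4 kilobases, 3 were above, with a median of -0.65. The tested genes as a whole showed the same, with medians of 0.66 and -0.41 in these classes. Spearman's correlation between exon length and deviation in replicate 2 was -0.62 over the 33 members and -0.38 over all tested genes, given as a description across genes that share a library. In mutant replicates 1 and 3 it was 0.11 and 0.077 over the members, and 0.15 and 0.18 over all tested genes. In WT replicates 1, 2 and 3 it was -0.68, 0.48 and 0.24 over the members, and -0.405, 0.18 and 0.26 over all tested genes. A correlation of this size was thus not particular to Wfs1-KO replicate 2. The standard deviation of the members' deviations was 0.23 in WT replicate 1, though, against 0.96 in Wfs1-KO replicate 2. Nupr1 (829 bases) and Ddit3 (890 bases) are the shortest members. Slc7a11, with 9848 bases the longest, was high in replicate 2 all the same. The part of RNA quality in these values was not tested.

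**Figure D5:**
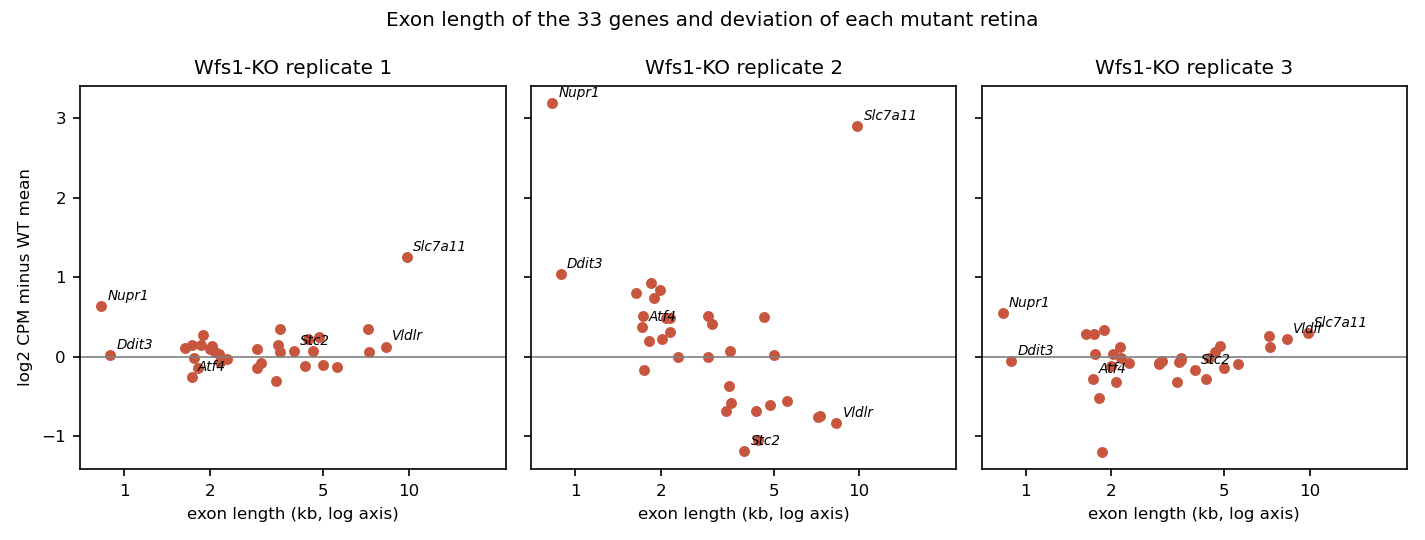
Exon length in kilobases (log x axis) against log2 CPM minus the WT mean for the 33 genes in each Wfs1-KO retina. In replicate 2 short genes lie above and long genes below the zero line, with Slc7a11 far above it at the right, and in replicates 1 and 3 the points lie closer to the line, apart from Slc7a11 in replicate 1 (1.26) and Gdf15 in replicate 3 (-1.20).

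Other genes of the pathway, taken from lists written for comparison, gave the same count of calls. Of 10 tested genes for subunits of eIF2 and eIF2B, the kinase PKR and related initiation factors, 0 passed the adjusted threshold and 0 had an unadjusted p under 0.05, and the median log2 fold change was 0.13, or -0.087 without Wfs1-KO replicate 2. Of 21 tested genes for aminoacyl-tRNA synthetases, counting the tRNA exporter, 0 passed and 0 had an unadjusted p under 0.05. ATF4 also drives some of these genes. Their median was -1.1e-05, or -0.076 without replicate 2. Of 29 tested further ATF4 or CHOP targets, 0 passed and 0 had an unadjusted p under 0.05, with a median of -0.046, or -0.068. Single log2 fold changes with 6 retinas ranged from -0.25 to 1.14, -0.40 to 0.45 and -0.56 to 1.03 in these lists, in the order given. The largest, of Eif2s2, went with 4.87 times the WT mean in replicate 2, against 0.883 and 0.854 times in replicates 1 and 3. Large departures of replicate 2 were thus not limited to the members. Without replicate 2, 3 of these companion genes had an unadjusted p under 0.05 (1 higher and 2 lower), where 2.8% of all genes were higher and 2.39% lower at that threshold, and they are named after their values were seen. Eif2s3x, an X-linked subunit of eIF2, differed by 0.57 on the log2 scale (standard error 0.17, adjusted p = 0.572), the cell cycle inhibitor Cdkn1a -0.93 (standard error 0.29, adjusted p = 0.661) and the cytosolic serine hydroxymethyltransferase Shmt1 -0.63 (standard error 0.27, adjusted p = 0.918), all from edgeR's test. Eif2s3x had 84.3 CPM in WT replicate 3, the animal of the other sex, and 89.8 and 117 CPM in the other WT retinas.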

How the data were processed

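Retinal RNA of 3 WT and 3 Wfs1-KO mice was sequenced. Per the labels and methods, the authors trimmed reads (Trimmomatic), mapped them to mm10 (STAR) and assigned them to exons of each gene (featureCounts). The deposited values are raw counts, not normalized, beside the exon length of each gene. Column names carry a letter for the genotype (C for control, W for Wfs1) and a number, by which columns were matched to samples. A further 2 columns fit none of the samples and were left out. Differences were tested in R 4.3.3 by edgeR 4.0.16 with quasi-likelihood F-tests, TMM factors, the filterByExpr filter, no covariate besides genotype, and Benjamini-Hochberg adjustment across tested genes. A standard error is the size of the log2 fold change divided by the square root of F. Logged CPM had a prior count of 2. A level of 3 counts corresponds to 0.0291 to 0.170 CPM, which covers counting error only. DESeq2 1.42.0 was an alternative, besides other size factors, other filters, a replicate block and leaving out each retina, and the procedure was tested on simulated data. Promoters are from RefSeq, and gene identifiers from GENCODE M21. The members and lists were chosen with earlier results of these data known. By rule, full values were given for members with an unadjusted p under 0.05 with or without Wfs1-KO replicate 2, members without overlap, and Atf4, Ddit3, Eif2ak3 and Eif2s1, with other members as examples. No 2 libraries of a genotype agreed within sampling noise (lowest chi-square per degree of freedom 18.1).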

Additional observations from a re-analysis of the deposited data

How the results depend on the processing

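Across the 12 alternatives 0 members passed the adjusted threshold, Nupr1 stayed between 0.57 and 2.39 and Slc7a11 between 0.81 and 2.25 on the log2 scale. Genes called higher (0) numbered 31 with DESeq2, 50 with DESeq2 without Wfs1-KO replicate 2, 5 with no filter and 0 to 13 when 1 retina was left out. Genes called lower (2) numbered 18, 45, 4 and 0 to 11 in the same order, and 1 with the replicate block. Genes with an unadjusted p under 0.05 that were higher (416) numbered 877 with DESeq2, 1080 with no filter, 233 with the block and 222 to 867 with 1 retina left out, and those that were lower (105) numbered 507 with DESeq2 without Wfs1-KO replicate 2, 161 with no filter and 70 to 458 with 1 retina left out. Members with an unadjusted p under 0.05 (2) numbered 1 with the block and 0 to 2 with 1 retina left out. Replicate numbers did not pair the retinas, with correlations of -0.234, -0.111 and 0.0784 between same-numbered retinas, and 0 retinas correlated best with their own number. The list medians of eIF2 with eIF2B and of the synthetases were -0.088 and -0.0765 with DESeq2 without Wfs1-KO replicate 2, and -0.087 to 0.25 and -0.076 to 0.042 with 1 retina left out. The sign of 17 members changed somewhere, none with a main log2 fold change beyond 0.41 in size. With DESeq2 without Wfs1-KO replicate 2 the log2 fold changes that turned were 0.18 for Eif2ak3, 0.088 for Eif2ak4, -0.038 for Ddit3, -0.033 for Atf5, 0.039 for Sesn2, -0.48 for Gdf15, 0.15 for Vldlr, 0.089 for Ero1l, -0.074 for Slc3a2, -0.066 for Asns, -0.0047 for Psat1 and -0.12 for Mthfd2, and with the replicate block -0.027 for Gdf15 and -0.047 for Slc7a1. Leaving out 1 retina gave -0.20 to 0.18 for Eif2ak3, -0.29 to 0.087 for Eif2ak4, -0.27 to 0.087 for Atf4, -0.038 to 0.60 for Ddit3, -0.033 to 0.49 for Atf5, -0.16 to 0.046 for Cebpg, -0.22 to 0.039 for Sesn2, -0.45 to 0.50 for Gdf15 and -0.29 to 0.15 for Vldlr. It gave -0.46 to 0.090 for Ero1l, -0.17 to 0.30 for Slc7a1, -0.074 to 0.19 for Slc3a2, -0.087 to 0.15 for Asns, -0.0039 to 0.32 for Psat1, -0.13 to 0.075 for Shmt2, -0.12 to 0.28 for Mthfd2 and -0.36 to 0.016 for Cth. The cause of these changes was not tested.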
